A study of Rattus norvegicus with 4 samples.

Results

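The interfollicular and wound epidermal keratins are the structural filament genes of the skin surface. The members are the 10 genes Krt5, Krt14, Krt15, Krt1, Krt10, Krt2, Krt6a, Krt6b, Krt16 and Krt17, chosen by symbol from the 54532 genes in the deposited count table. They were followed in RNA-seq libraries of rat ear skin from day 3, after delivery of a gene by AAV (adeno-associated virus, a common gene carrier). In 2 Sprague Dawley rats, 1 ear received AAV-Fgf7 (genotype label "Fgf7 overexpression") and the other received AAV-control (genotype label "wt"), so each group held 2 libraries. Tissue was taken at the injection site, and the labels name no wound. Neither the promoter that drives Fgf7 in the virus nor the age and sex of the rats is stated in the labels. The titles and the design text disagree on which ear received which virus, so ear side was not used.

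Keratins are intermediate filament proteins that assemble only as pairs of a type I chain with a type II chain. Basal keratinocytes make Krt14 (type I) with Krt5 (type II), and cells that leave the basal layer switch to Krt10 (type I) with Krt1 (type II), joined by Krt2 (type II) in the upper layers. Krt6a and Krt6b (type II) with Krt16 and Krt17 (type I) are induced in keratinocytes at wound edges and are also made in parts of the hair follicle. Fibroblast growth factor 7 (FGF7), made by dermal cells, acts on keratinocytes, which carry the epithelial isoform of its receptor FGFR2.

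All 5 type I members are listed on the minus strand of mouse chromosome 11 and all 5 type II members on that of mouse chromosome 15, because the table carries mouse gene models for these rat libraries. Krt14 (ENSMUSG00000045545) is listed from 100203162 to 100207548 and Krt5 (ENSMUSG00000061527) from 101707070 to 101712898. Krt10 (ENSMUSG00000019761) is listed from 99385254 to 99389364 and Krt6a (ENSMUSG00000058354) from 101689910 to 101694307. Which mouse build these positions follow, and how rat reads were assigned to them, is not stated in the labels. Krt14, Krt16 and Krt17 resemble each other closely in sequence, as do Krt5, Krt6a and Krt6b, so reads may have been shared or lost among them, and comparisons within these sets are uncertain. RefSeq's rat genes (GRCr8) include 9 of the 10 symbols.

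Rat promoter sequence from RefSeq (GRCr8) was at hand for 3 members. These were Krt5 and Krt10, whose levels were highest in the same library, and Krt2, whose level was not. The 250 bases before each start site are shown 5′ to 3′ on the gene's own minus strand, at chr7:134730570-134730819 for Krt5, chr10:84839161-84839410 for Krt10 and chr7:134826737-134826986 for Krt2. Capitals mark exact matches to TATAAA, a common form of the TATA box, and to CACCC, a box bound by Krüppel-like factors, on either strand.
Krt5: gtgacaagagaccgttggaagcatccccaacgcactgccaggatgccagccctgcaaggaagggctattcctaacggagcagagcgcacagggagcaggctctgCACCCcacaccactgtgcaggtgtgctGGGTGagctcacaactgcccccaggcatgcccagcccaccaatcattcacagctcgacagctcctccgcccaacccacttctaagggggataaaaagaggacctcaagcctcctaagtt
Krt10: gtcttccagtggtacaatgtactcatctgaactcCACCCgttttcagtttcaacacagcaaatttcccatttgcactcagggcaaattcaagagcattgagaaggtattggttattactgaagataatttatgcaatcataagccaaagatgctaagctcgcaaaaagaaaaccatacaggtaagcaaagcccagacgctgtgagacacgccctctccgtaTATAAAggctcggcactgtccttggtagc
Krt2: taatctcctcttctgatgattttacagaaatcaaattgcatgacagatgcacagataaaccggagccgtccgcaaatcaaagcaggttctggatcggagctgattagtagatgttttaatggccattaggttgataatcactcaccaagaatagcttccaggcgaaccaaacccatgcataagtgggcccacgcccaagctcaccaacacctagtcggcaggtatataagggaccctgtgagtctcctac
The Krt10 stretch held TATAAA 1 time, beginning 29 bases before the start site, and CACCC 1 time. The Krt5 stretch held CACCC 2 times, and the Krt2 stretch held neither motif as an exact match. Near its end the Krt2 stretch reads tatataag, a close variant of TATAAA that was not counted. The lack of an exact match thus does not show that Krt2 lacks a TATA box. Across 33469 rat promoters of the same length, 12.9% held TATAAA and 49.2% held CACCC on either strand. The AP-1 motif TGANTCA, present in 6.34% of promoters, and the AP-2 motif GCCNNNGGC, present in 12.6%, had no match in the 3 stretches. A match or its lack in these windows says nothing about binding of a factor.

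The libraries held between 1299136 and 1601321 counts, and enough counts for the test were found for 6370 genes, among them 7 of the 10 keratins. Levels between libraries are given as CPM, the counts divided by a library total scaled with TMM factors, and levels between genes as the authors' FPKM, which divides by the length of the gene model. The delivered gene Fgf7 stood at 321 and 989 CPM in the AAV-Fgf7 ears of rats 1 and 2, against 71.4 and 73.2 CPM in their control ears (log2 fold change 3.18, SE 0.54, edgeR adjusted p = 0.9996). Fgf7 passed by DESeq2 (adjusted p = 3.47e-07), by edgeR with no low-count filter (0.00512), and by edgeR without the control library of rat 1 (0.00117) or of rat 2 (0.000548). No keratin passed the edgeR quasi-likelihood test at an adjusted p under 0.05 over all genes (0 of 7, against 0% of the 6370 genes), and none passed by DESeq2 (0.0628% of genes called) or limma-voom (0%). At an unadjusted p under 0.05 there were 3 keratins by edgeR (Krt5, Krt14 and Krt6a, all higher with AAV-Fgf7), while 1.71% of all genes were higher, and 2.32% differed in either direction, at that level. DESeq2 gave 4 at that level, the same 3 and Krt10, against 1.32% of all genes, and limma-voom gave the same 3, against 2.06%. The median log2 fold change of the 7 tested keratins, AAV-Fgf7 over control virus, was 1.20, against -0.02 over all genes tested. Of the 7, 6 had a positive log2 fold change, as did 47.8% of all genes. The 7 are those with enough counts in these libraries and do not stand for all 10. Among them, Krt6a reached the filter only with the help of its AAV-Fgf7 ears, where it was high. This raises the counts of keratins and the median given here.

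Both AAV-Fgf7 libraries lay above both controls for 3 keratins, Krt5, Krt14 and Krt6a, a pattern shown by 14.8% of all genes tested. Both lay below both controls for 0 keratins and for 13.3% of all genes. The same 3 were the keratins higher with AAV-Fgf7 in both rats, as were 21.0% of all genes. In the other 4 tested keratins (Krt15, Krt10, Krt2 and Krt17) the groups overlapped. The AAV-Fgf7 library of rat 2 was the highest of the 4 for 5 of the 7, against 25.1% of all genes, with Krt2 and Krt17 as the exceptions. Krt6a, tested only with the help of its AAV-Fgf7 ears, is part of the 3 and of the 5.

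**Figure D1:**
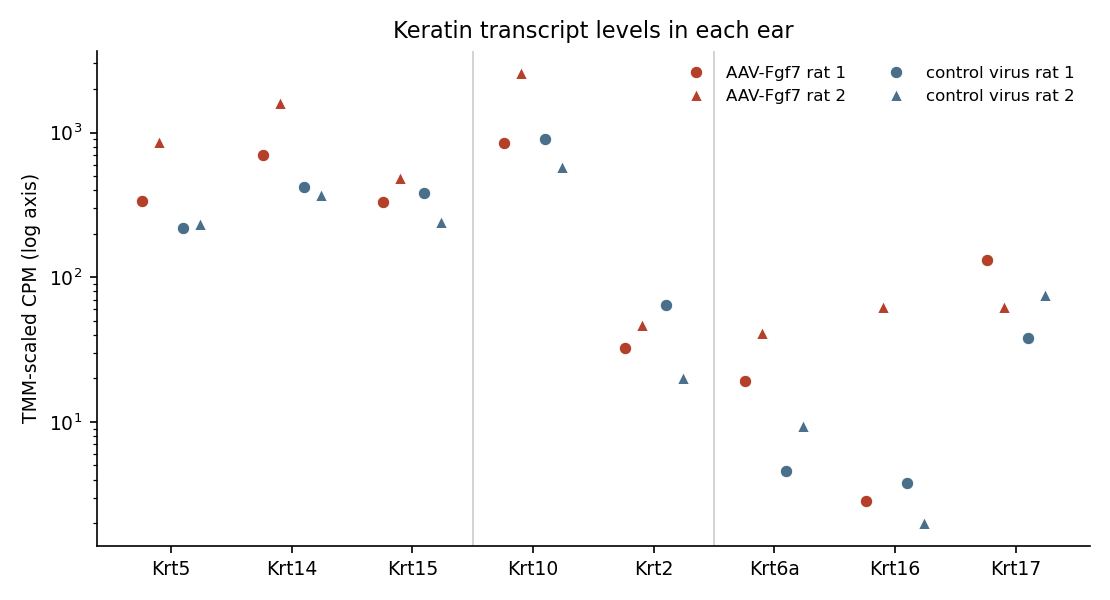
Level of 8 keratins in each of the 4 libraries, as TMM-scaled CPM on a log axis. Each point is 1 library (circles rat 1, triangles rat 2), and vertical lines divide basal, suprabasal and wound keratins. Krt5, Krt14 and Krt6a have both AAV-Fgf7 points above both control points, and Krt16 has 1 high point. Krt1 and Krt6b, with at most 1 count in any library, are not drawn.

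Both members of the basal pair were higher with AAV-Fgf7, to a like degree. Krt14 stood at 699.9 and 1596 CPM in the AAV-Fgf7 ears of rats 1 and 2, against 421 and 370.1 CPM in their control ears. Krt5 stood at 338 and 862 CPM in the AAV-Fgf7 ears, against 220.2 and 232 CPM in the control ears. For both genes the controls lay close together and the AAV-Fgf7 ears stood apart from each other, with rat 2 at 2.28 times rat 1 for Krt14 and 2.55 times for Krt5. Within rat 1 the ratio of the AAV-Fgf7 ear to the control ear was 1.66 for Krt14 (95% exact binomial interval 1.497 to 1.85) and 1.54 for Krt5 (1.32 to 1.78). Within rat 2 it was 4.31 for Krt14 (3.93 to 4.74) and 3.71 for Krt5 (3.29 to 4.19). These intervals each compare 2 single libraries, so they cover counting error at most and not the spread between animals. No molecular identifiers are described, so duplicate reads could make the intervals too narrow. In bulk tissue, a change in the share of keratinocytes and a change in RNA per keratinocyte cannot be told apart.

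Krt14 averaged 1148 ± 634 CPM with AAV-Fgf7 and 395 ± 35.8 CPM with control virus, and Krt5 averaged 600.1 ± 370.3 and 226 ± 8.55 CPM (SD, n = 2 each). Log2 fold changes were 1.54 (SE 0.39) for Krt14 and 1.41 (SE 0.43) for Krt5, with unadjusted p = 0.00743 and 0.0165 by edgeR and an adjusted p of 0.9996 for each. Krt14 had a larger fold change than all but 0.738% of the tested genes, and Krt5 than all but 0.942%. With the AAV-Fgf7 ear of rat 2 left out, they were 0.82 for Krt14 and 0.58 for Krt5. Krt14 passed edgeR over all genes when either control library was left out (adjusted p = 0.0401 without that of rat 1 and 0.0397 without that of rat 2). Such a fit holds a lone control library that is taken to vary like the AAV-Fgf7 libraries, and the adjusted p of Krt14 was 0.691 when the AAV-Fgf7 ear of rat 1 was left out and 0.9995 when that of rat 2 was.

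Krt15, a type I keratin of basal cells and of the hair follicle bulge, did not follow the basal pair. It stood at 329.8 and 486 CPM in the AAV-Fgf7 ears of rats 1 and 2, against 379.6 and 242 CPM in their control ears. The groups overlapped, and the log2 fold change was 0.39 (SE 0.30). The AAV-Fgf7 ear of rat 1 held 0.868 times the level of its control ear (interval 0.764 to 0.987), and that of rat 2 held 2.01 times (1.77 to 2.28).

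Krt10, the type I keratin of the spinous layer, had the highest mean FPKM of the keratins. It stood at 852 and 2569 CPM in the AAV-Fgf7 ears of rats 1 and 2, against 909 and 582 CPM in their control ears. Only the AAV-Fgf7 ear of rat 2 stood apart, and that of rat 1 lay between the controls. The ratio between the ears was 0.937 in rat 1 (interval 0.864 to 1.02) and 4.41 in rat 2 (4.10 to 4.75). The log2 fold change was 1.20 (SE 0.52; edgeR unadjusted p = 0.0596), and 0.19 without the AAV-Fgf7 library of rat 2.

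Krt2 and Krt1, the type II keratins of suprabasal cells, had few counts beside Krt10. Krt2 stood at 32.5 and 47.1 CPM in the AAV-Fgf7 ears of rats 1 and 2, against 63.8 and 19.97 CPM in their control ears, so that both AAV-Fgf7 ears lay between the controls. Its log2 fold change was -0.07 (SE 0.56), a sign that turned positive in 8 of 15 other fits. Krt1 had raw counts of 1 and 1 in the AAV-Fgf7 ears and 0 and 1 in the control ears, while Krt10 had 1206 and 3710 in the AAV-Fgf7 ears and 1197 and 875 in the control ears. In the epidermis Krt1 and Krt10 are partners in the same filaments, and over the 4 libraries the deposited counts gave a Krt10 to Krt1 ratio of 4865 per base of gene model (interval 1664 to 23595). A lack of counts under a mouse gene model does not show that the rat transcript was absent, and how many Krt1 reads were lost was not tested.

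Among the wound keratins, Krt6a differed between the ears by a similar ratio in both rats. Krt6a stood at 19.1 and 40.8 CPM in the AAV-Fgf7 ears of rats 1 and 2, against 4.56 and 9.32 CPM in their control ears. Raw counts were 27 and 59 in the AAV-Fgf7 ears, against 6 and 14 in the control ears. The means were 29.96 ± 15.4 CPM with AAV-Fgf7 and 6.94 ± 3.37 CPM with control virus (SD, n = 2 each). The AAV-Fgf7 ears lay above both controls, with a ratio between the ears of 4.18 in rat 1 (interval 1.69 to 12.4) and 4.38 in rat 2 (2.42 to 8.50). The log2 fold change was 2.08 (SE 0.58, edgeR unadjusted p = 0.0113, adjusted p = 0.9996). It was larger than that of all but 0.220% of the tested genes, and stayed between 1.43 and 2.70 when any 1 library was left out. Krt6a reached the low-count filter only with the help of its AAV-Fgf7 ears, since the control ear of rat 1 held 6 counts. Its rank among the tested genes therefore does not count as support.

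Krt16, the usual type I partner of Krt6a, was high in 1 library. It had raw counts of 4 and 90 in the AAV-Fgf7 ears of rats 1 and 2, against 5 and 3 in their control ears, and did not pass the low-count filter. The AAV-Fgf7 ear of rat 1 lay between the controls. In rat 2 the AAV-Fgf7 ear held 31.2 times the level of the control ear (interval 10.3 to 154), and in rat 1 it held 0.744 times (0.148 to 3.46). The counts of Krt16 were 0.404% and 3.90% of those of Krt14 in the AAV-Fgf7 ears of rats 1 and 2, against 0.902% and 0.540% in the control ears. Krt17 had raw counts of 186 and 90 in the AAV-Fgf7 ears, against 50 and 113 in the control ears, so that Krt16 and Krt17 had 90 counts each in the AAV-Fgf7 ear of rat 2. Whether reads were shared among these related genes was not tested. When a mean count of 10 was the filter, the fold change of Krt16 was 3.48 on the log2 scale (SE 1.37; edgeR adjusted p = 0.9991). Krt6b, a near copy of Krt6a, had 1 count in all, in the control ear of rat 1.

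Krt17, a type I keratin of wound edges and of the outer root sheath, was highest in the other AAV-Fgf7 library. It stood at 131 and 62.3 CPM in the AAV-Fgf7 ears of rats 1 and 2, against 37.96 and 75.2 CPM in their control ears. The groups overlapped, with a ratio between the ears of 3.46 in rat 1 (interval 2.52 to 4.83) and 0.828 in rat 2 (0.621 to 1.10). The log2 fold change was 0.77 (SE 0.48), with 0.13 when the AAV-Fgf7 library of rat 1 was left out and 1.21 when that of rat 2 was.

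**Figure D2:**
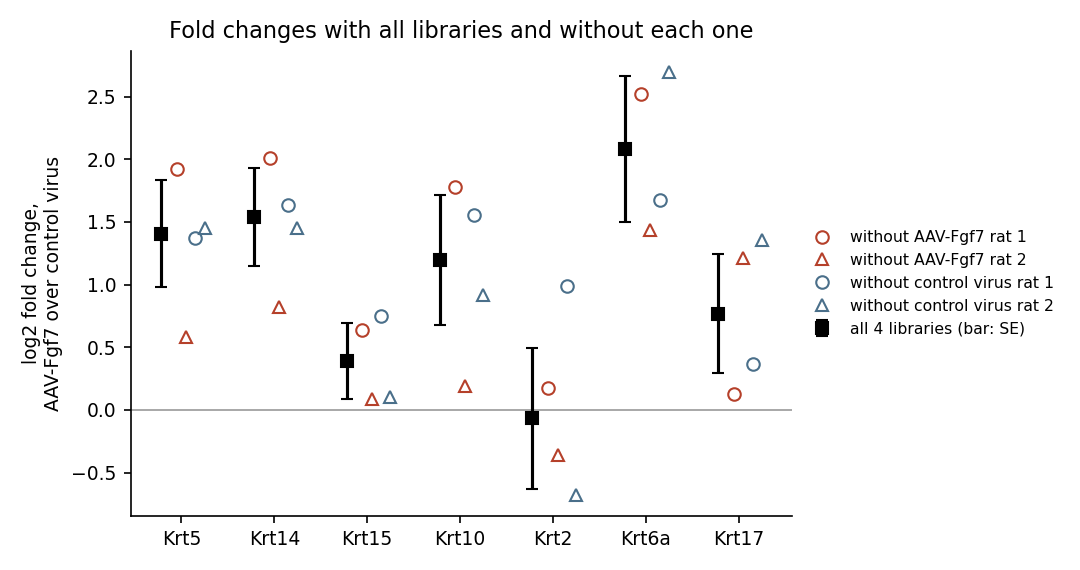
Log2 fold change of the 7 tested keratins, AAV-Fgf7 over control virus. Black squares are the edgeR fit of all 4 libraries with the SE as bars, and open symbols are the fits that leave out 1 library. Without the AAV-Fgf7 library of rat 2, Krt5, Krt14 and Krt10 stand at 0.58, 0.82 and 0.19, and Krt6a lies between 1.43 and 2.70 in the fits that leave out 1 library.

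In the make-up of the keratin transcripts, the basal members took 59.2% and 54.2% of the summed FPKM in the AAV-Fgf7 ears of rats 1 and 2, against 53.4% and 57.4% in their control ears. The suprabasal members took 33.3% and 42.4% in the AAV-Fgf7 ears, against 43.8% and 35.8% in the control ears. These suprabasal shares hold almost nothing from Krt1, which had at most 1 count in any library. The wound members took 7.56% and 3.33% in the AAV-Fgf7 ears, against 2.81% and 6.79% in the control ears, and the groups overlapped for each of the 3 classes. By single gene the groups did not overlap for 3 of the 10, with 2 above both controls and 1 below. In CPM, 14.8% of all genes tested lay above both controls and 13.3% below. Those values use another measure and only tested genes, so they are no direct background for 3 of 10. The 3 are therefore not read as setting the keratins apart. Krt14 took 31.9% and 31.2% in the AAV-Fgf7 ears, against 23.1% and 26.6% in the control ears, and Krt15 took 14.9% and 9.47%, against 20.7% and 17.4%. Krt6a took 0.632% and 0.581% in the AAV-Fgf7 ears, against 0.182% and 0.488% in the control ears. These shares are parts of 1 sum, so they are not independent, and they were not tested. As part of the library, the 10 keratins together held 0.238% and 0.584% of all counts in the AAV-Fgf7 ears, against 0.207% and 0.144% in the control ears.

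**Figure D3:**
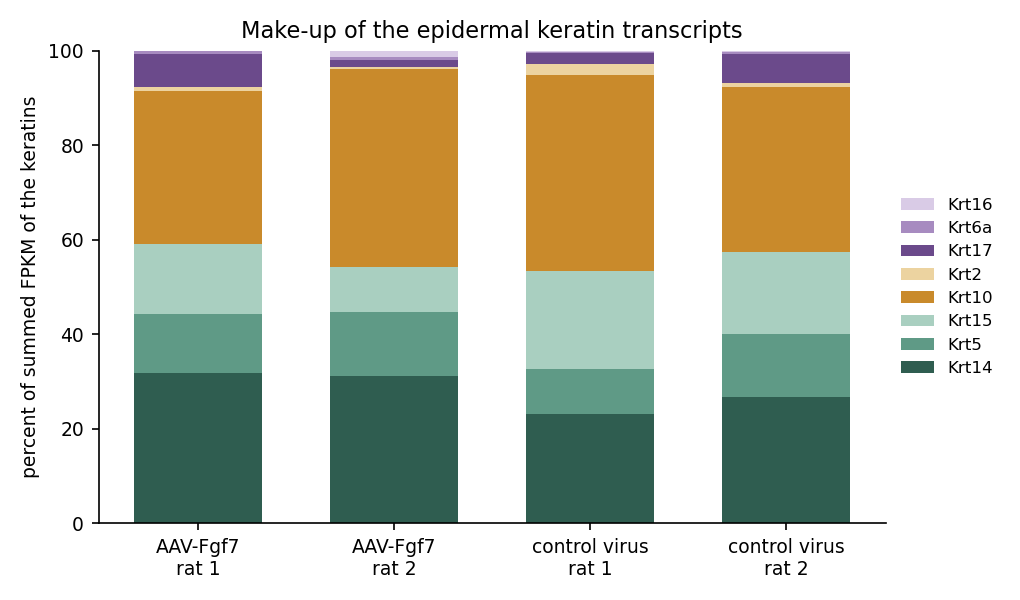
Share of each keratin in the summed FPKM of the 10 keratins (bars, percent), 1 bar per library. Krt14 fills more of the bar in both AAV-Fgf7 libraries (31.9% and 31.2%) than in the controls (23.1% and 26.6%), and Krt15 less. Krt1 and Krt6b are too small to draw.

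Over the 4 libraries the mean FPKM ran from Krt10 (569.99) through Krt14 (431), Krt15 (199.7), Krt5 (185), Krt17 (48.5), Krt2 (15.3), Krt16 (11.1) and Krt6a (7.48) down to Krt1 (0.115) and Krt6b (0.0837). Between neighbours in this order, ranges over libraries overlapped for Krt10 and Krt14, Krt14 and Krt15, Krt15 and Krt5, Krt2 and Krt16, Krt16 and Krt6a, and Krt1 and Krt6b. Within a library, Krt10 exceeded Krt14 in 4 of 4, Krt15 exceeded Krt5 in 3 of 4, and Krt16 exceeded Krt6a in 2 of 4. Summed type I FPKM was 6.16 and 5.80 times summed type II FPKM in the AAV-Fgf7 ears, against 7.18 and 5.73 times in the control ears. Krt1 and Krt6b had at most 1 count in any library, so the type II sum held almost nothing from them. How many of their reads were lost was not tested. These ratios and the places of Krt1 and Krt6b in the order therefore do not give the true balance in rat skin.

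The ratio of type I to type II transcript within a library does not depend on how libraries are scaled. Krt14 to Krt5, per base of gene model, was 2.59 and 2.31 in the AAV-Fgf7 ears of rats 1 and 2, against 2.39 and 1.99 in their control ears. The highest of these was 1.30 times the lowest, the smallest spread among the 8 pairs with a ratio. Krt15 to Krt5 was 1.21 and 0.701 in the AAV-Fgf7 ears, against 2.14 and 1.297 in the control ears, lower with AAV-Fgf7 by 0.82 on the log2 scale in rat 1 and by 0.89 in rat 2. Krt10 to Krt2 was 32.4 and 67.4 in the AAV-Fgf7 ears, against 17.6 and 36.1 in the control ears. It was higher with AAV-Fgf7 by 0.88 on the log2 scale in rat 1 and 0.90 in rat 2, while the groups overlapped.

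The wound pairs varied most. Krt16 to Krt6a was 0.229 and 2.36 in the AAV-Fgf7 ears of rats 1 and 2, against 1.29 and 0.331 in their control ears, a 10.3-fold span with no order by virus. Its intervals were 0.0582 to 0.657 and 1.68 to 3.33 in the AAV-Fgf7 ears, against 0.311 to 5.06 and 0.0610 to 1.19 in the control ears. They are wide where Krt16 had few counts (4 in the AAV-Fgf7 ear of rat 1, 5 and 3 in the control ears), so counting error is part of this span. Krt17 to Krt6a was 10.7 and 2.38 in the AAV-Fgf7 ears, against 12.99 and 12.6 in the control ears. Both AAV-Fgf7 values lay below both controls, but the interval of the AAV-Fgf7 ear of rat 1 (7.15 to 16.7) held both control values. Ratios to Krt1 and Krt6b were not formed by library.

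Ratios across layers were read in the same way. Krt10 to Krt14 was 1.01 and 1.34 in the AAV-Fgf7 ears, against 1.797 and 1.31 in the control ears, with overlap. Krt6a to Krt5 was 0.0512 and 0.0431 in the AAV-Fgf7 ears, against 0.0188 and 0.0364 in the control ears, both AAV-Fgf7 values being higher. The interval of the control ear of rat 2 (0.0197 to 0.0620) held both AAV-Fgf7 values. Krt17 to Krt14 was 0.213 and 0.0443 in the AAV-Fgf7 ears, against 0.102 and 0.230 in the control ears, and had no order by virus. With 2 libraries per group, a two-sided exact permutation test cannot give a p below 0.333 for a single ratio. The 8 ratios had p from 0.333 to 1. The test could not have called any of them and does not use the pairing of ears by rat, so these p-values do not show that the ratios were alike.

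**Figure D4:**
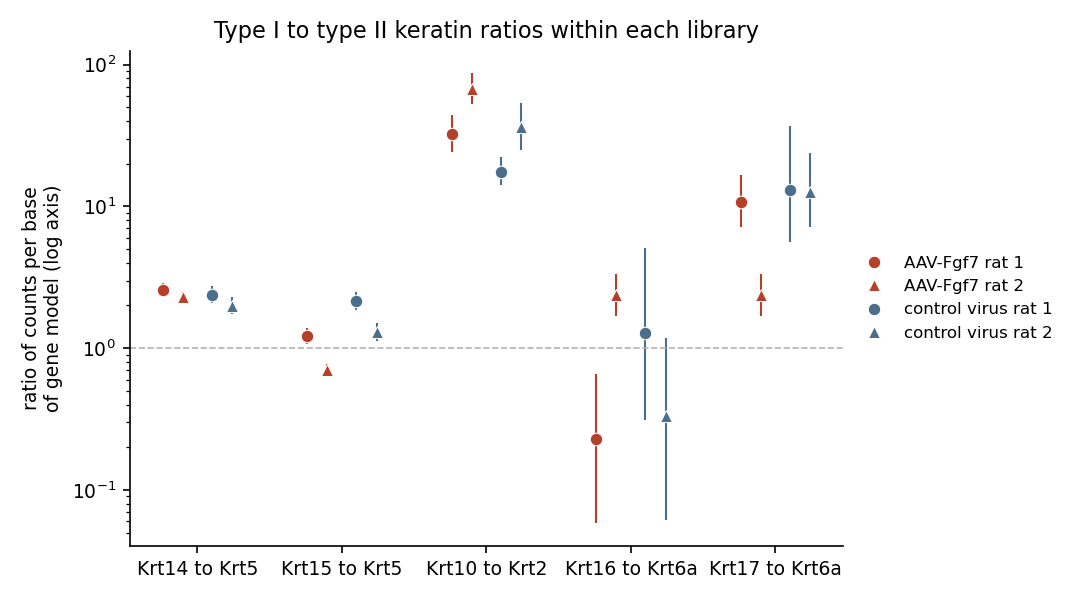
Ratio of type I to type II keratin within each library, from counts per base of gene model on a log axis. Points are libraries, bars are 95% exact binomial intervals of counting error, and the dashed line marks equal amounts. Krt14 to Krt5 stays between 1.99 and 2.59 in all 4 libraries, while Krt16 to Krt6a runs from 0.229 to 2.36.

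Other genes of keratinocytes were read from lists chosen for this tissue. Of 16 epithelial junction genes 5 were tested, and for 4 both AAV-Fgf7 levels exceeded both control levels, against 14.8% of all genes tested (median log2 fold change 0.90, against -0.02), with 0 called over all genes. On the log2 scale the desmosome gene Dsp stood at 0.72 (SE 0.22) and Pkp1 at 0.99 (SE 0.26). Junction genes summed to 1131 and 1579 CPM in the AAV-Fgf7 ears of rats 1 and 2, against 721 and 769 CPM in their control ears. Relative to this sum, Krt5 stood at 0.299 and 0.546 in the AAV-Fgf7 ears, against 0.306 and 0.302 in the control ears. Krt14 stood at 0.619 and 1.01 in the AAV-Fgf7 ears, against 0.584 and 0.481 in the control ears, and Krt10 at 0.753 and 1.63, against 1.26 and 0.758. In the AAV-Fgf7 ear of rat 1 these ratios were about level with the lower control for Krt5 and Krt10, and slightly above both controls for Krt14. In that of rat 2 all 3 lay above both controls. No interval of counting error was formed for these ratios.

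Of 10 genes listed for keratin-linking plakins, integrins and related proteins, 7 were tested. Of these, 2 lay above both controls (14.8% of all genes did) and 0 below (13.3%), and the median was 0.31. The 7 include Krtcap2 (-0.23, SE 0.26), which is not a keratin linker. Plec, the plakin that ties keratins to other structures, stood at 0.03 (SE 0.21). Of 12 epidermal regulators 8 were tested, and 6 lay above both controls (14.8% of all genes) with a median of 0.79. Among the 6, Klf5 had raw counts of 21 and 21 in the AAV-Fgf7 ears, against 8 and 18 in the control ears. It reached the low-count filter only with the help of the AAV-Fgf7 ears, which raises the count of 6. Sfn, the keratinocyte adaptor stratifin, stood at 1.55 (SE 0.30), and Tfap2a, the AP-2 alpha factor, at 0.95 (SE 0.23), while Klf4, a Krüppel-like factor of the barrier, stood at -0.09 (SE 0.19). Of 20 cornified envelope and barrier genes 3 were tested (median 0.75), and 1 lay above both controls (14.8% of all genes did). This was Asprv1, a filaggrin-processing protease, at 1.54 (SE 0.56). It had raw counts of 13 and 20 in the AAV-Fgf7 ears, against 5 and 6 in the control ears. Asprv1 thus passed the low-count filter through the AAV-Fgf7 ears alone, and its value does not stand for the list.

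Of 24 other genes of activated keratinocytes 4 were tested, and none had both AAV-Fgf7 levels above, or both below, both controls. Their median was 0.06, with Tnc, a matrix protein of wound beds, at 0.35 (SE 0.28) and the laminin gene Lamb3 at -0.13 (SE 0.39). Of 12 proliferation genes 7 were tested, and 6 lay above both controls (14.8% of all genes) with a median of 1.30. Counts were low, as for Ccna2, with raw counts of 19 and 33 in the AAV-Fgf7 ears, against 7 and 9 in the control ears. Genes like Ccna2 pass the low-count filter through the AAV-Fgf7 libraries alone, which raises this count and median. Neither the count nor the median therefore stands for the list. No gene of these lists was called by edgeR over all genes.

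Of 17 keratins of other surface epithelia, 5 had a count and only Krt79 was tested. Krt79, made in the upper hair follicle and sebaceous duct, had counts of 16 and 53 in the AAV-Fgf7 ears, against 30 and 6 in the control ears.

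Hair follicle keratins differed widely among the same libraries. Of 25 listed, 16 had a count and 8 were at 0 in all libraries (Krt26, Krt35, Krt36, Krt40, Krt72, Krt74, Krt75 and Krt84, named after their values were seen). The remaining 1, Krt85, had no entry under that symbol among the deposited genes. Their summed level was 4726 and 287 CPM in the AAV-Fgf7 ears of rats 1 and 2, against 53.9 and 1623 CPM in their control ears. All 14 tested hair keratins had positive log2 fold changes (median 1.33), against 47.8% of all genes, and for 1 of the 14 both AAV-Fgf7 levels exceeded both controls, against 14.8% of all genes. From high to low, the order of the libraries by hair keratins was AAV-Fgf7 rat 1, control rat 2, AAV-Fgf7 rat 2 and control rat 1, which was also the order by Krt17. Krt5, Krt14, Krt10 and Krt6a were highest in the AAV-Fgf7 ear of rat 2, where hair keratins were low. Outer root sheath cells also make Krt5, Krt14, Krt15 and Krt17, and the part of follicles in the levels of these keratins was not tested.

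Summed markers of muscle, cartilage, fibroblasts and macrophages overlapped between the groups. Skeletal muscle genes (16 of 16 with a count) summed to 33287 and 16176 CPM in the AAV-Fgf7 ears, against 15279 and 63875 CPM in the control ears. Cartilage genes (10 of 13 with a count) summed to 1099 and 648 CPM in the AAV-Fgf7 ears, against 591 and 2145 CPM in the control ears. Fibroblast genes (8 of 12) summed to 57427 and 36926 CPM in the AAV-Fgf7 ears, against 46788 and 57520 CPM in the control ears, the lowest being the library where Krt5, Krt14 and Krt10 were highest. Macrophage genes (6 of 10) summed to 205 and 278 CPM in the AAV-Fgf7 ears, against 382 and 148 CPM in the control ears. Sebaceous gland genes (9 of 10) summed to 146 and 150.2 CPM in the AAV-Fgf7 ears, against 91.9 and 132 CPM in the control ears. The groups did not overlap in this sum, but of its 3 tested genes only 1, Awat1, lay above both controls. Among all genes tested 14.8% did so. The other tested sebaceous genes, Scd1 and Far2, overlapped between the groups. The part of tissue make-up in the keratin values was not tested.

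**Figure D5:**
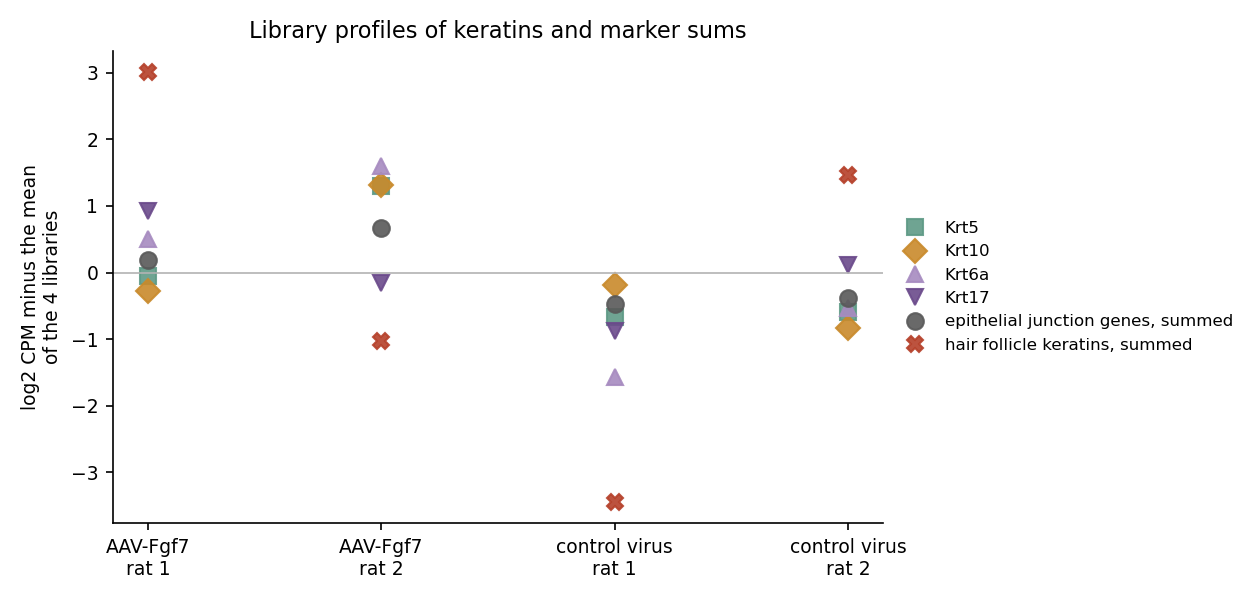
Level of 4 keratins and of 2 summed marker lists in each library, as log2 CPM minus the mean of the 4 libraries. Each symbol is 1 gene or list in 1 library. Krt5, Krt10 and Krt6a peak in the AAV-Fgf7 ear of rat 2, while Krt17 and the hair follicle keratins peak in that of rat 1.

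Likeness of pattern was measured as the root-mean-square distance between log2 CPM profiles over the 4 libraries, each centred on its mean. Among 4386 genes with a mean of at least 20 CPM, Krt14 was the second closest to Krt5 (distance 0.137) and Krt10 the fifth (0.291). Outside the keratins, the closest genes to Krt5 were Serpinb5, the epithelial serpin maspin (0.114), Bcl11b (0.253), Phgdh (0.272) and the plakophilin gene Pkp1 (0.294). The closest to Krt10 were Bcl11b (0.166), Hmgb2 (0.173), Phgdh (0.197) and Tlx1 (0.221). Again outside the keratins, the closest to Krt6a were Sfn (0.291), the ETS factor gene Etv4 (0.382), Bmp7 (0.416) and Wnt4 (0.473). The keratins Krt5 (0.429) and Krt14 (0.434) were closer to Krt6a than Wnt4 was. The closest to Krt17 were Lhx2, a transcription factor of hair follicle stem cells (0.183), Lurap1l (0.186), Ptpn4 (0.208) and Arfgap1 (0.219). By the same measure Krt17 ranked 3339th among the neighbours of Krt5, at a distance of 0.941. These distances describe 4 libraries that share tissue make-up and depth, and carry no test.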

How the data were processed

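Per the labels' protocols, RNA of ear skin was extracted with a column kit, and libraries made by poly(A) selection or ribosomal depletion (the protocol leaves this open) were read on a NovaSeq X Plus instrument. The authors deposited raw counts per gene and FPKM for the same 54532 genes, all with mouse Ensembl identifiers, while the submitters' processing notes name the rat build Rnor_6.0 (rn6). No aligner or counter is named in the labels. The deposited FPKM equalled count over gene length and an effective library total (largest relative difference 1.3e-14). The description of the AAV-Fgf7 sample of rat 2 repeats the column of rat 1, so its column was taken by the rat number in its title.

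Genes passing filterByExpr (6370) were scaled by TMM and tested with the quasi-likelihood test of edgeR 4.0.16 in R 4.3.3, AAV-Fgf7 over control virus, with Benjamini-Hochberg adjustment over all genes and a threshold of 0.05. CPM use the TMM-scaled totals of these genes. Standard errors are the log2 fold change over the root of F. On simulated data of 6168 genes, the fit recovered 78 of 100 genes changed by 2 on the log2 scale and 96 of 100 changed by 3, with 2 false calls. The simulation gave all genes 1 common spread (coefficient of variation 29.1%), and in the real libraries Fgf7, at 3.18, was not called by the same fit. DESeq2 1.42.0 and limma 3.58.1 were alternatives, limma on log2(FPKM + 1) or log2(FPKM + 0.1) included. Members, gene lists and pairs were chosen with earlier results of these data known. Named genes are the 10 keratins, Fgf7, up to 3 highest-level tested genes per list and the 4 closest profiles of 4 keratins. Not all genes that this rule allows are named. The groups' ears come from the same rats, so rat numbers pair the libraries, and a fit with a replicate block of rat served as alternative (same-rat deviations correlated at r = -0.30 across genes). The 2 rats are separate animals, and p-values rest on 2 libraries per group.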

Additional observations from a re-analysis of the deposited data

How the results depend on the processing

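At the depth of these 4 libraries, Krt1, Krt6b and Krt16 did not pass the low-count filter, and Krt6a rests on 106 counts. With no filter none of the 3 was called (edgeR adjusted p = 0.9929 for Krt1, 0.9746 for Krt6b and 0.9746 for Krt16), and Krt16 had a log2 fold change of 3.47. Fold changes of Krt5, Krt14, Krt15, Krt10, Krt6a and Krt17 kept their sign in each of the 15 other fits. That of Krt2 (-0.07) turned positive with limma-voom (0.17), FPKM with pseudocount 1 (0.10, with or without the filter), FPKM with pseudocount 0.1 (0.12), the replicate block of rat in edgeR (0.10) and in limma-voom (0.036), and ran from -0.68 to 0.99 with 1 library left out. No keratin was called with RLE factors, library totals, other filters, DESeq2, limma-voom, FPKM or the replicate block (0 called), and leaving out 1 library gave 0 to 1 (Krt14 without either control library). Over all genes, 0 were called in the main analysis, 3 with no low-count filter, 4 by DESeq2 and 0 to 59 with 1 library left out (59 without control rat 1, 40 without control rat 2). The replicate block changed no call. A crossed replicate block, added after seeing the data because same-rat deviations were negatively correlated, also called 0 genes. Of the pair ratios, the difference in Krt16 to Krt6a (0.17) ran from -1.51 to 1.85 and that in Krt17 to Krt14 (-0.66) from -1.79 to 0.47 with 1 library left out; the other 6 kept their sign, and the cause of each change was not tested.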
